A study of Homo sapiens with 20 samples.

Results

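H3K27ac, the acetylation of lysine 27 of histone H3 that marks active promoters and enhancers, was examined at 10 genes that encode subunits of the SWI/SNF chromatin remodelling complexes. Each gene was represented by a fixed window of hg19, from 60 kb for BRD9 to 500 kb for ARID1B and 2080 kb in all, and every deposited peak that overlapped a window was taken. This gave 968 of the 458811 peaks in 4 lists. The cells were G401, a human rhabdoid tumour line whose labels give the genotype as SMARCB1(-/-) in every sample, and a doxycycline-switched construct supplied GFP in the controls and SMARCB1 in the other group. Each group had 2 H3K27ac libraries, among 20 samples in 10 groups. The libraries for H3K4me3, H3K4me1, SMARCA4 and input were not analysed here, so the selection by gene window was applied to H3K27ac alone. A single line limits both groups as a model, and the dose and duration of doxycycline are not given in the sources used here. The labels number the replicates but do not say whether they came from separate cultures, so the spread between them may be technical.

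SWI/SNF complexes use an ATPase, either SMARCA4 (BRG1) or SMARCA2 (BRM), to slide and eject nucleosomes. SMARCC1 belongs to the core on which the other subunits assemble, and SMARCB1, missing from these cells, docks the complex on the nucleosome. Canonical BAF carries ARID1A or ARID1B together with a DPF family reader such as DPF3, PBAF carries ARID2 and PBRM1, and the non-canonical complex carries BRD9 and does not contain SMARCB1. Rhabdoid tumours are driven by loss of SMARCB1 and have been described as dependent on BRD9. The comparison asks whether acetylation at the genes of the remaining subunits differs once SMARCB1 is supplied.

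Promoter sequences are shown for the 2 genes whose windows held no peak and for the 2 whose windows showed the largest ratio of covered length (ARID1B) and the most covered sequence in GFP cells (SMARCA4). RefSeq gave promoters for 8 of the 10 members in build GRCh38.p14, and the 250 bases before the start are printed with every CG pair in capitals, taking the listed start with the most CG pairs. Because the peaks are in hg19, no peak was placed on these sequences.
SMARCA2: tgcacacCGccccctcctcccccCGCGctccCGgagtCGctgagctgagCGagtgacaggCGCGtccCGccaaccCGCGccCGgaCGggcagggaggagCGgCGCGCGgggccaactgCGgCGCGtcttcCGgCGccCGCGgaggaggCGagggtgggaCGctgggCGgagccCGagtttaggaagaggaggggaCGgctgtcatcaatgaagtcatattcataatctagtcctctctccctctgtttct
DPF3: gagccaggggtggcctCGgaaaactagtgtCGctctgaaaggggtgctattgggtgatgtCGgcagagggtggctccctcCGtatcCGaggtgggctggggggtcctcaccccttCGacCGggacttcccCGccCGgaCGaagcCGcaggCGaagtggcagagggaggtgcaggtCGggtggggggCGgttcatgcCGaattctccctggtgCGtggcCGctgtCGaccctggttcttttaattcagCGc
ARID1B: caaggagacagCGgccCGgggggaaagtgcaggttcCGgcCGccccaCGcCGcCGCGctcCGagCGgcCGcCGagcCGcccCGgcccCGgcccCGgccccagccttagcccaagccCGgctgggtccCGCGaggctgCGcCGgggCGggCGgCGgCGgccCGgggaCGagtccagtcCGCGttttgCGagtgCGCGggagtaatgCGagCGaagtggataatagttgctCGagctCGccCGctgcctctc
SMARCA4: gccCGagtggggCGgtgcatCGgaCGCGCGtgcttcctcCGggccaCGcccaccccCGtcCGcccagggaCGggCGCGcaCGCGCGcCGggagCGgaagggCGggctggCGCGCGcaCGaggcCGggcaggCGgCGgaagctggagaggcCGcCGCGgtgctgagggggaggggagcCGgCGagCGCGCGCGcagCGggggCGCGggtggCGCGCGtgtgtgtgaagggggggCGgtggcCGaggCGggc
The SMARCA2 stretch (GRCh38.p14, chr9:2015097-2015346, plus strand) held 29 CG pairs, more than 83.5% of the 27305 genes in the table, whose median was 12. The DPF3 stretch (chr14:72892650-72892899, minus strand) held 19 CG pairs, more than 61.7% of genes. ARID1B (chr6:156777128-156777377, plus strand) held 37 and SMARCA4 (chr19:10960780-10961029, plus strand) held 44, more than 95.1% and 99.0% of genes. A CG pair was present in 94.2% of all promoter stretches of this length. Both genes without a peak thus have promoters richer in CG pairs than the median gene. The activator protein 1 motif, TGACTCA or TGAGTCA on either strand, was in none of the 8 members' stretches and in 4.05% of all.

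The lists differed in length and depth. They held 98251 and 79555 peaks with GFP and 145533 and 135472 with SMARCB1. The background at a typical summit, recovered from each peak's fold enrichment and p-value, was 1.82 and 3.74 fragments with GFP, and 4.09 (4.78 before a scaling of its counts) and 3.89 with SMARCB1. GFP replicate 1 stood apart in background, while GFP replicate 2 was close to SMARCB1 replicate 2, and the GFP library with the lower background had the longer list of that group. The part of depth and list length in the results was not tested beyond the 2 versions of the lists given below. In the first, equal lists, every library gave its 79555 strongest peaks. In the second, depth-lowered lists, the fragments of every peak were reduced in proportion to the background of GFP replicate 1. Peaks were then kept or dropped whole, so kept peaks retained their original width and covered length within them was not lowered. An exact two-sided permutation test of 2 libraries against 2 cannot give a p below 0.333, so separation of the groups, meaning that both libraries of one lay above both of the other, is reported beside it.

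Covered length, the sequence under peaks, was higher in both SMARCB1 libraries than in both GFP libraries in 6 of the 10 windows (ARID1A, ARID1B, ARID2, PBRM1, SMARCC1 and BRD9) and lower in 1 (SMARCD3). The SMARCA4 groups overlapped, and SMARCA2 and DPF3 had no peak in any list. As background, 53.2% of the 6962 genome tiles of 200 kb that held a peak separated upwards in the same way and 18.1% downwards. On the same basis 6 of the 8 windows with a peak did so, 75%. Counting windows and tiles without a peak as well, the shares were 6 of 10 and 24.3% of 15242 tiles. The windows are of unequal length, and these shares are descriptions. The median ratio of SMARCB1 to GFP means was 1.56 over the 8 windows with peaks and 1.24 over the 5860 tiles with peaks in both groups. Peak number separated upwards in 6 windows, ARID1A, ARID1B, ARID2, PBRM1, SMARCC1 and SMARCD3, against 56.7% of tiles, and downwards in none, against 7.90% of tiles. After dividing by each library's total covered length, 5 windows separated upwards (background 41.2%) and 1 downwards (background 38.3%). With equal lists only ARID1B, PBRM1 and BRD9 separated upwards (background 40.0%) and SMARCD3 downwards (background 28.8%) in covered length. In peak number, ARID1B and ARID2 then separated upwards (background 32.2%) and SMARCA4 downwards (background 24.2%). With depth lowered, the same 6 windows separated upwards (background 46.5%) and SMARCD3 downwards (background 22.4%) in covered length, and 6 windows upwards (background 41.6%) and none downwards (background 10.9%) in peak number.

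**Figure D1:**
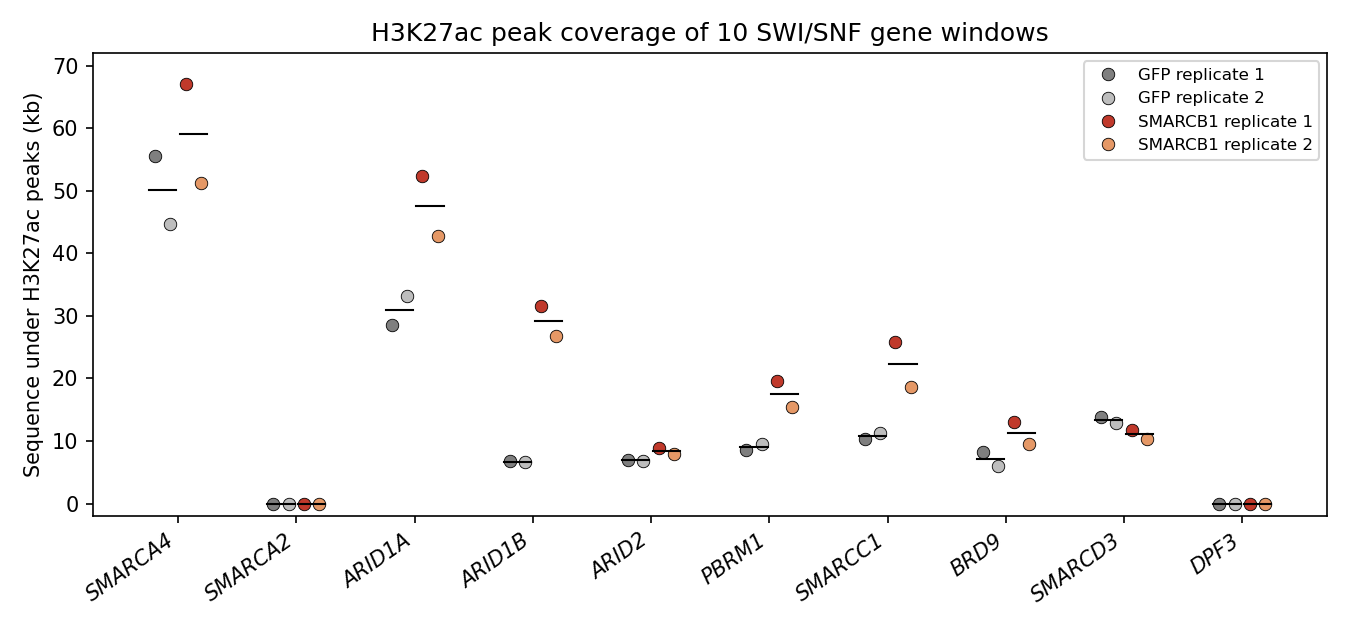
Sequence under H3K27ac peaks (kb, linear axis) in each gene window, with 1 point per library and short lines at the group means (n = 2). The ARID1B points move from 6.79 and 6.62 kb with GFP to 31.6 and 26.8 kb with SMARCB1, and SMARCA2 and DPF3 lie at 0 in all 4 libraries.

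The 2 ATPase genes were at opposite ends. SMARCA4 (chromosome 19, 11.05 to 11.19 Mb) was the window with the most covered sequence in every library. Peaks covered 55.5 and 44.7 kb with GFP and 67.0 and 51.2 kb with SMARCB1, up to 47.8% of the window. GFP replicate 1 lay above SMARCB1 replicate 2, so the groups overlapped. The means were 50.1 ± 7.65 and 59.1 ± 11.1 kb (SD, n = 2), with p = 0.667 in the two-sided exact permutation test. Their ratio was 1.18. Without SMARCB1 replicate 1 the difference in covered length was 1.13 kb, and without SMARCB1 replicate 2 it was 16.9 kb. With equal lists the ratio turned to 0.936, and relative to each library's total covered length it was 0.905. A peak was found in all 4 libraries in 20 of its 94 merged regions, the most in number of any window. By share, 21.3%, it was below SMARCD3 (28.6%) and BRD9 (21.7%) and above the 16.7% of the genome's regions. The strongest shared region, at chr19:11052938-11064617, was covered over 11276 and 10982 bases with GFP and 11100 and 10371 bases with SMARCB1, which is nearly its whole width in every library. The highest fold of the window was at this region in the GFP lists, 22.3 and 14.8, and at chr19:11071533-11080192 in the SMARCB1 lists, 15.5 and 15.4.

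Within the SMARCA4 window, regions moved in both directions. A region that crosses the lower edge at 11.05 Mb, chr19:11047971-11052852, was chosen after its values were seen. Counted in full, with the part outside the window, it was covered over 4780 and 4574 bases with GFP. With SMARCB1 this was 2981 and 1989 bases. Regions with peaks in both SMARCB1 and no GFP list numbered 10 of 94 (10.6%), and 2 showed the opposite (2.13%), against 17.5% and 3.94% of the genome's 167933 merged regions. Of the 10, 8 lay within 28.4 kb at chr19:11149659-11178091, and 6 lay within 1 kb of a GFP peak. One of the 2, at chr19:11136705-11137070, had a fold over background of 4.02 and 2.97 with GFP and lay 173 bp from a SMARCB1 peak. Regions close to the edges of the window may belong to other genes.

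SMARCA2 (chromosome 9, 1.95 to 2.21 Mb) had no peak in any of the 4 lists. The nearest peaks lay 1479 kb below and 555 to 598 kb above the window with GFP. With SMARCB1 no peak at all preceded the window on the chromosome, and the next one began 513 to 514 kb above it. The stretch without a peak was thus 2294 and 2338 kb long in the GFP lists. Peak-free stretches are common in these lists: each held between 544 and 599 of more than 1 Mb, and 54.3% of all 200 kb tiles up to the last peak of each chromosome were empty. A peak list shows only what passed the caller's threshold, and weaker acetylation was not detectable in it. DPF3 (chromosome 14, 73.07 to 73.38 Mb), whose product reads acetylated and methylated histone tails within canonical BAF, also had no peak in any list. Its peak-free stretch was 1152 kb with GFP in both libraries and 1193 kb with SMARCB1 in both. That stretch ended at a peak 12.6 to 13.4 kb beyond the upper edge of the window in every list, on the side where RefSeq places DCAF4. Neither gene had a called peak with GFP or with SMARCB1.

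ARID1B showed the largest ratio of the 8 windows with peaks. ARID1B encodes the alternative to ARID1A in canonical BAF. Its window (chromosome 6, 157.05 to 157.55 Mb) held 8 and 5 peaks over 6.79 and 6.62 kb with GFP, and 53 and 50 peaks over 31.6 and 26.8 kb with SMARCB1. The lower SMARCB1 library thus had 42 more peaks than the higher GFP library. Mean covered length was 6.70 ± 0.120 kb with GFP and 29.2 ± 3.42 kb with SMARCB1 (SD, n = 2), with p = 0.333 in the two-sided exact permutation test. Their ratio was 4.35. A ratio at least as high was found in 9.04% of the 5860 tiles with peaks in both groups. Tiles with peaks in 1 group only were left out of this share. The ARID1B ratio was 3.07 with equal lists and 3.63 with depth lowered, and the groups stayed separated in both. Relative to each library's total covered length the ratio was 3.34.

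Most of the added ARID1B peaks lay away from the sites present with GFP. The strongest shared region, at chr6:157097268-157101596, was covered over 3934 and 4311 bases with GFP and 4276 and 4239 bases with SMARCB1. Its strongest peak was in none of the 4 tables of stitched regions, whose headers call them distal to transcription start sites. By comparison, ARID1A's strongest shared region had its top peak in 2 of the tables, and those of the other 6 windows were in all 4. Without an hg19 annotation, whether any of these regions is distal or at a start was not checked. Another shared site at chr6:157340449-157343285 was covered over 1560 and 1669 bases with GFP and 2831 and 2466 bases with SMARCB1. A further 19 of the window's 76 merged regions, 25%, were gained, meaning that both SMARCB1 lists and no GFP list had a peak there, against 17.5% of the 167933 merged regions of the genome. No region was lost, meaning a peak in both GFP and neither SMARCB1 library, against 3.94% of the genome's regions. The largest group was 9 gained regions within 23.7 kb, at chr6:157146882-157170537, centred 48.5 to 70.9 kb above the strongest region. They amounted to 8140 and 6873 bases in SMARCB1 replicates 1 and 2. Median distance from a gained region to the nearest GFP peak was 13.0 kb, and 2 of the 19 lay within 1 kb of one. The window held only 8 and 5 GFP peaks over 500 kb, so long distances are likely wherever a peak is added. No genome share of these distances is given.

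Among the 6 gained regions with the highest lower fold enrichment over all windows, 5 belonged to ARID1B. Fold enrichment is the authors' value for a peak's summit over the caller's background and is used here only to describe and rank. The first, at chr6:157149215-157150672, had a fold of 9.93 and 7.16 on 58 and 34 fragments, and no GFP peak lay within 24813 bp. The next, at chr6:157146882-157148998, had 5.40 and 5.94. A region at the far end of the window, chr6:157505609-157508330, had 5.44 and 5.32 with no GFP peak for 162329 bp. The remaining ones in ARID1B, at chr6:157167478-157168024 and chr6:157168349-157169280, had lower folds of 5.12 and 4.91. These folds were below those of the strongest shared region in the same lists, 16.1 and 11.7. With GFP that shared region had higher folds, 34.7 and 19.8. Both SMARCB1 folds were also below both GFP folds at the strongest shared regions of SMARCA4, SMARCC1 and BRD9. At those of ARID1A, ARID2, PBRM1 and SMARCD3 the folds of the groups overlapped. Fold depends on each list's background, and this difference was not tested. Over all windows the gained regions had a median fold of 3.52, against 3.68 for gained regions of the genome, and rested on a median of 19 fragments at the summit.

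**Figure D2:**
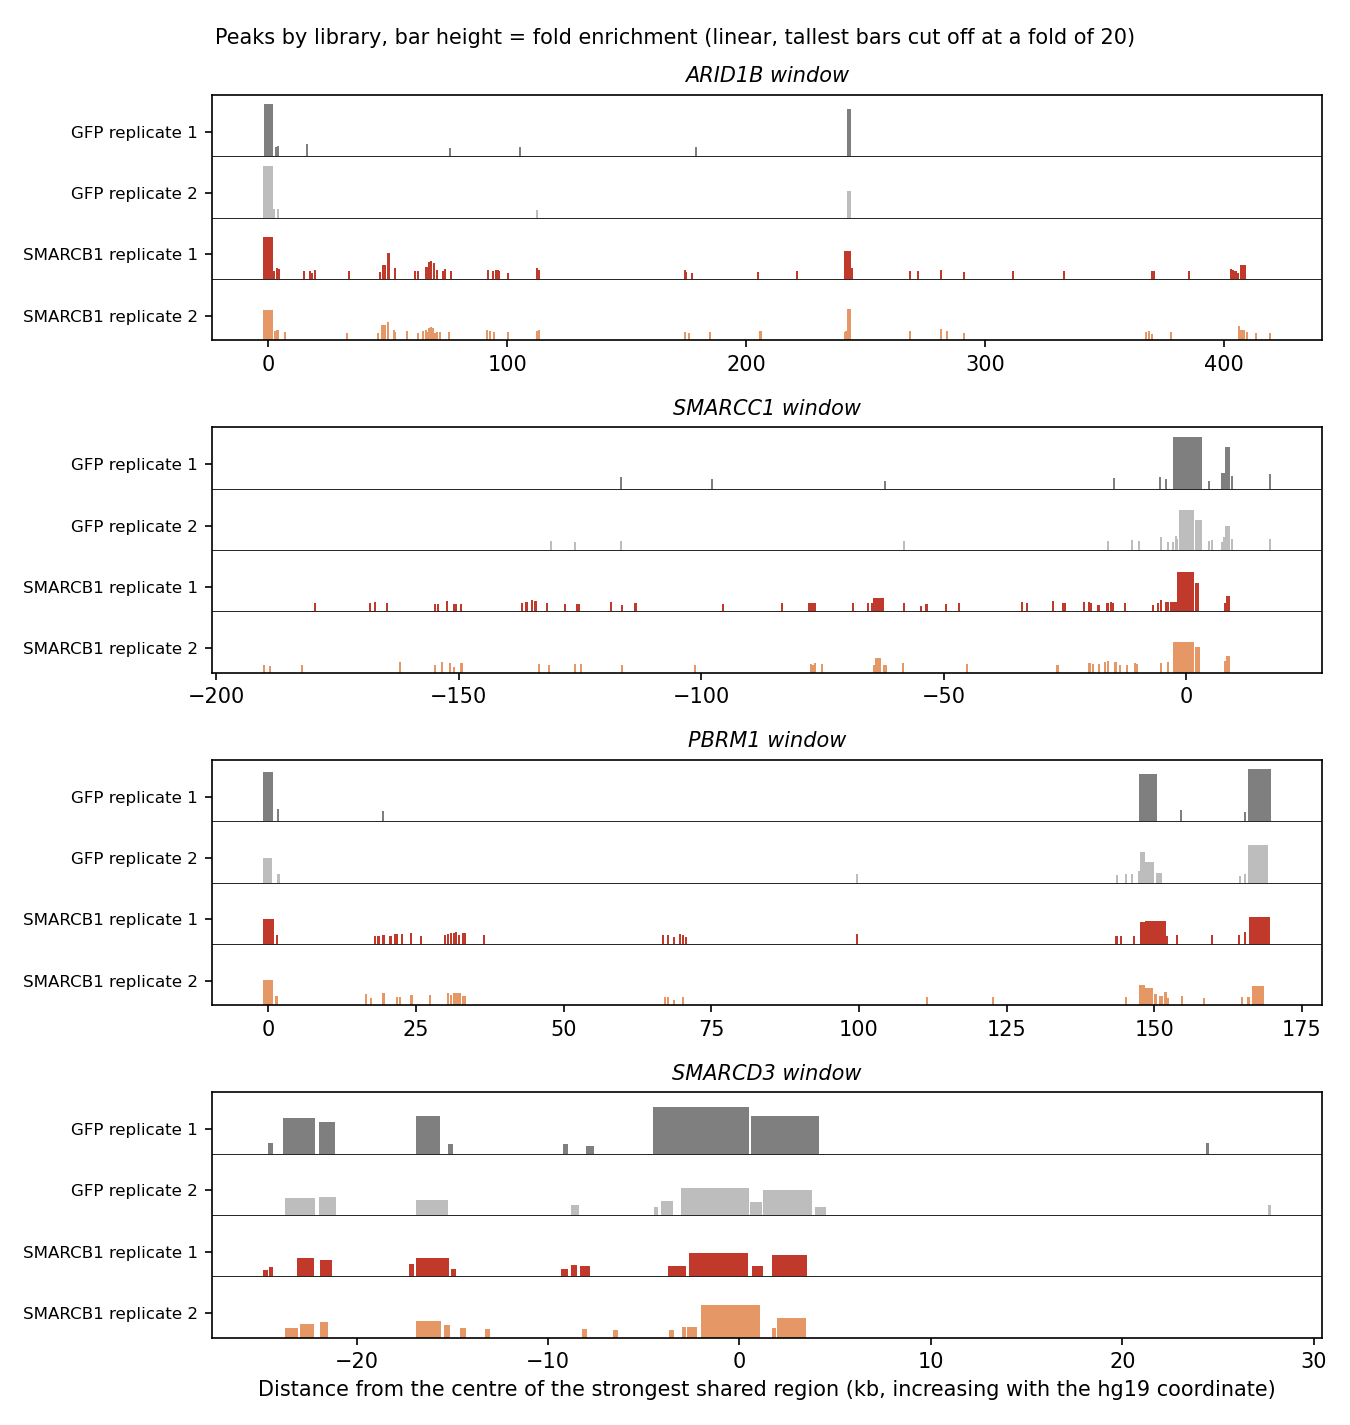
Peaks of each library in 4 windows, by distance from the centre of the strongest shared region (kb), with bar height giving the authors' fold enrichment on a linear scale that stops at 20. In the ARID1B panel both SMARCB1 rows show groups of short bars between 48.5 and 113 kb that are nearly absent from the GFP rows, while the bars at 0 and near 242 kb are present in all rows.

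ARID1A, the more often mutated ARID subunit of canonical BAF, started from a higher level. In its window (chromosome 1, 27 to 27.12 Mb) peaks covered 28.6 and 33.1 kb with GFP and 52.3 and 42.7 kb with SMARCB1. Both SMARCB1 libraries exceeded both GFP libraries by at least 9.54 kb. The means were 30.9 ± 3.23 and 47.5 ± 6.78 kb (SD, n = 2), with p = 0.333 in the two-sided exact permutation test. Their ratio was 1.54. Peak number was 30 and 29 with GFP and 66 and 65 with SMARCB1. With equal lists the ratio was 1.17 and the groups overlapped, since GFP replicate 2 covered 33.1 kb and SMARCB1 replicate 2 covered 29.6 kb.

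The 2 main sites of the ARID1A window were covered to a like extent in both groups. The widest, chosen after its values were seen, was at chr1:27010409-27030192 and was covered over 17920 and 18959 bases with GFP and 18844 and 16858 bases with SMARCB1. The strongest shared region, at chr1:27111253-27115755, lay within 10 kb of the window's upper edge, on the side of the neighbour PIGV, and was covered over 3708 to 4377 bases in the 4 libraries. All 17 gained regions lay between these sites, 16 of them within 53.5 kb. Thus 17 of 76 regions were gained (22.4%, background 17.5%) and 2 were lost (2.63%, background 3.94%). Of the gained regions 8 lay within 1 kb of a GFP peak. The first lost region, at chr1:27004192-27004564, had a fold of 6.82 and 5.49 with GFP and lay 180 bp from a SMARCB1 peak. The other, at chr1:27115911-27116544, had 4.25 and 4.01 and lay 167 bp from one.

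The PBAF genes differed in how much sequence was added. ARID2, the DNA-binding ARID subunit of PBAF (chromosome 12, 46.10 to 46.32 Mb), had 2 and 1 peaks over 6.91 and 6.85 kb with GFP, and 5 and 7 peaks over 8.86 and 7.96 kb with SMARCB1. Nearly all of this was a single shared region at chr12:46119757-46127258, covered over 6905 and 6854 bases with GFP and 7390 and 7039 bases with SMARCB1. The groups were separated by 1.06 kb, with p = 0.333 in the two-sided exact permutation test and a ratio of 1.22. With equal lists they overlapped at a ratio of 1.09, and relative to total covered length the ratio was 0.942. Of its 8 regions, 1 was gained (background 17.5%), 22.5 kb from the shared one, and none was lost (background 3.94%).

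PBRM1 encodes the polybromo subunit, whose bromodomains bind acetylated histones. Its window (chromosome 3, 52.57 to 52.74 Mb) held 7 and 13 peaks over 8.53 and 9.55 kb with GFP, and 36 and 32 peaks over 19.5 and 15.5 kb with SMARCB1. The means were 9.04 ± 0.727 and 17.5 ± 2.84 kb (SD, n = 2), separated by 5.95 kb, with p = 0.333 in the two-sided exact permutation test. Their ratio was 1.94. The ratio was 1.63 with depth lowered and 1.23 with equal lists, and the groups were separated in both. Strong shared sites lay at both ends of the window. By the lowest of the 4 folds the strongest was at chr3:52570632-52572508, beside the neighbour UQCC5, covered over 1797 and 1460 bases with GFP and 1842 and 1711 bases with SMARCB1. Gained regions made up 9 of 43 (20.9%, background 17.5%), none was lost (background 3.94%), and none of the gained ones was within 1 kb of a GFP peak. They formed 2 groups, 6 within 12.1 kb at chr3:52592900-52605038 and 3 within 2.81 kb at chr3:52639074-52641878. A further 22 regions had a peak in 1 library only, a SMARCB1 library in all 22. Over the genome 49.9% of regions had a peak in 1 library, which was a SMARCB1 library, with its longer list, in 71.8% of them.

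SMARCC1, a core subunit of every SWI/SNF complex, had 12 and 21 peaks over 10.3 and 11.3 kb with GFP and 57 and 42 peaks over 25.9 and 18.6 kb with SMARCB1 (chromosome 3, 47.61 to 47.84 Mb). The groups were separated by 7.35 kb and by 21 peaks. The means were 10.8 ± 0.694 and 22.3 ± 5.12 kb (SD, n = 2), with p = 0.333 in the two-sided exact permutation test. Their ratio was 2.06. This ratio depended on the lists: it was 1.49 with depth lowered, and 1.14 with equal lists, where the groups overlapped. The number of peaks then differed by -0.5. Only 8 of its 82 merged regions were gained (9.76%, background 17.5%), 3 were lost (3.66%, background 3.94%), and 60 were present in a single library, of which 55 were in a SMARCB1 library (49.9% and 71.8% in the genome). The strongest shared region, at chr3:47818415-47825000, was covered over 6110 and 5753 bases with GFP and 5857 and 5459 bases with SMARCB1. The strongest gained region, at chr3:47756850-47759327, had a fold of 5.23 and 5.73 and lay 89 bp from a GFP peak. Lost regions lay near the upper edge, at chr3:47838922-47839212, chr3:47830912-47831271 and chr3:47826235-47826681, with lower GFP folds of 4.43, 4.38 and 3.01.

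BRD9, the bromodomain subunit that defines the non-canonical complex, has the shortest window (chromosome 5, 0.85 to 0.91 Mb). Peaks covered 8.28 and 5.96 kb with GFP and 13.0 and 9.55 kb with SMARCB1, so the groups were separated by 1.27 kb. The means were 7.12 ± 1.64 and 11.3 ± 2.43 kb (SD, n = 2), with p = 0.333 in the two-sided exact permutation test. Their ratio was 1.58. The ratio was 1.39 with equal lists and 1.57 with depth lowered, each time with separated groups, but the groups overlapped when 10 kb was taken off both ends of the window. Without SMARCB1 replicate 1 the difference was 2.43 kb in place of 4.15 kb. Peak number, 15 and 10 with GFP and 20 and 13 with SMARCB1, overlapped. The strongest shared region, at chr5:891479-895958, was covered over 4189 and 3828 bases with GFP and 3686 and 4001 bases with SMARCB1. The added length lay in weaker regions around it, chosen after their values were seen: the one at chr5:900681-902122 was covered over 312 and 217 bases with GFP and 1442 and 1099 bases with SMARCB1. Only 1 of 23 regions was gained (4.35%, background 17.5%) and none was lost (background 3.94%). RefSeq places ZDHHC11 before BRD9 and TRIP13 after it. The region at chr5:900681-902122 lies above the strongest shared one, towards TRIP13, and the added length may lie at a neighbour.

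SMARCD3 was the only window with less covered sequence in both SMARCB1 libraries. SMARCD3 (BAF60C) is one of the alternative SMARCD subunits, known for roles in heart and muscle development. Peaks covered 13.7 and 12.8 kb of its window (chromosome 7, 150.92 to 150.99 Mb) with GFP and 11.8 and 10.4 kb with SMARCB1. The means were 13.3 ± 0.655 and 11.1 ± 1.02 kb (SD, n = 2), separated by 0.999 kb, with p = 0.333 in the two-sided exact permutation test. Their ratio was 0.835. The direction was kept with equal lists (0.792) and with depth lowered (0.790), and relative to total covered length it was 0.643. A ratio at least as high was found in 80.7% of the 5860 tiles with peaks in both groups. The reduction lay mainly in the strongest shared region, at chr7:150941933-150950999, covered over 8654 and 8160 bases with GFP and 6405 and 5825 bases with SMARCB1. Shared regions below it, at chr7:150922607-150924287 and chr7:150924496-150925403, lie on the side of the neighbour CHPF2. The first was covered over 1663 and 1544 bases with GFP and 873 and 1431 with SMARCB1, and the next over 817 and 894 with GFP and 631 and 419 with SMARCB1. A further one, at chr7:150929588-150931640, was covered over 1519 and 1634 bases with GFP and 1984 and 1587 with SMARCB1, so not all shared regions narrowed. Peak number moved the other way, from 10 and 11 with GFP to 14 and 15 with SMARCB1. This separation was lost at a -log10 q of at least 5, with equal lists, with windows shrunk by 10 kb at both ends and, at a difference of 0, with peaks within 1 kb joined. None of the 14 regions was gained (background 17.5%) or lost (background 3.94%).

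**Figure D3:**
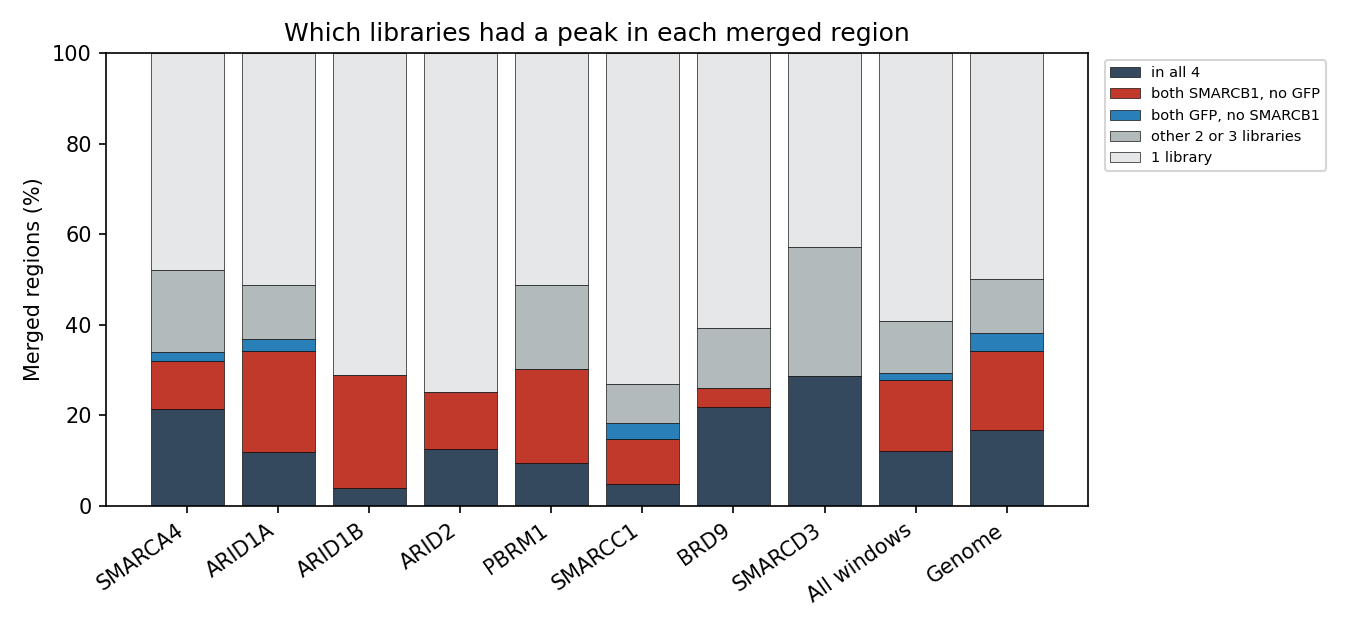
Share of merged regions (%, axis from 0 to 100) by the libraries that had a peak in them, for each window with peaks, all windows and the genome. Gained regions are 25% in ARID1B, 22.4% in ARID1A, 20.9% in PBRM1 and 0 in SMARCD3, against 17.5% in the genome.

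Over all windows, 65 of 416 merged regions were gained (15.6%, background 17.5%) and 7 were lost (1.68%, background 3.94%). A peak in every library was found in 50 regions (12.02%, background 16.7%). Peaks in 1 library only made up 246 regions (59.1%, against 49.9% of the genome's regions), of which 206 were in a SMARCB1 library (83.7% of the 246, against 71.8% of such regions in the genome). ARID1B and ARID1A together held 36 of the 65 gained regions, and every lost region was in SMARCC1, ARID1A or SMARCA4. With all peaks the share of gained regions was below that of the genome, and the count changed with the lists: 21 were gained and 19 lost with equal lists (background 11.4% and 8.12%), and 46 and 12 with depth lowered (background 14.2% and 5.24%). With fewer libraries to match, 145 of 290 regions were gained without SMARCB1 replicate 1 (50%, against 39.0% in the genome under the same rule) and 191 of 336 without SMARCB1 replicate 2 (56.8%, against 46.7%). Lost regions then numbered 24 of 393 without GFP replicate 1 (6.11%, against 9.29%), 30 of 399 without GFP replicate 2 (7.52%, against 14.2%) and 16 of 290 without SMARCB1 replicate 1 (5.52%, against 7.55%). The windows' share of gained regions was thus below that of the genome with all peaks of both SMARCB1 libraries and above it with 1 of them. With both libraries it was above with depth lowered (15.8% against 14.2%) and at a -log10 q of at least 5 (16.9% against 15.1%). It was below with equal lists (9.46% against 11.4%), with peaks within 1 kb joined (13.4% against 14.1%) and with shrunk windows (16.8% against 17.5%).

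**Figure D4:**
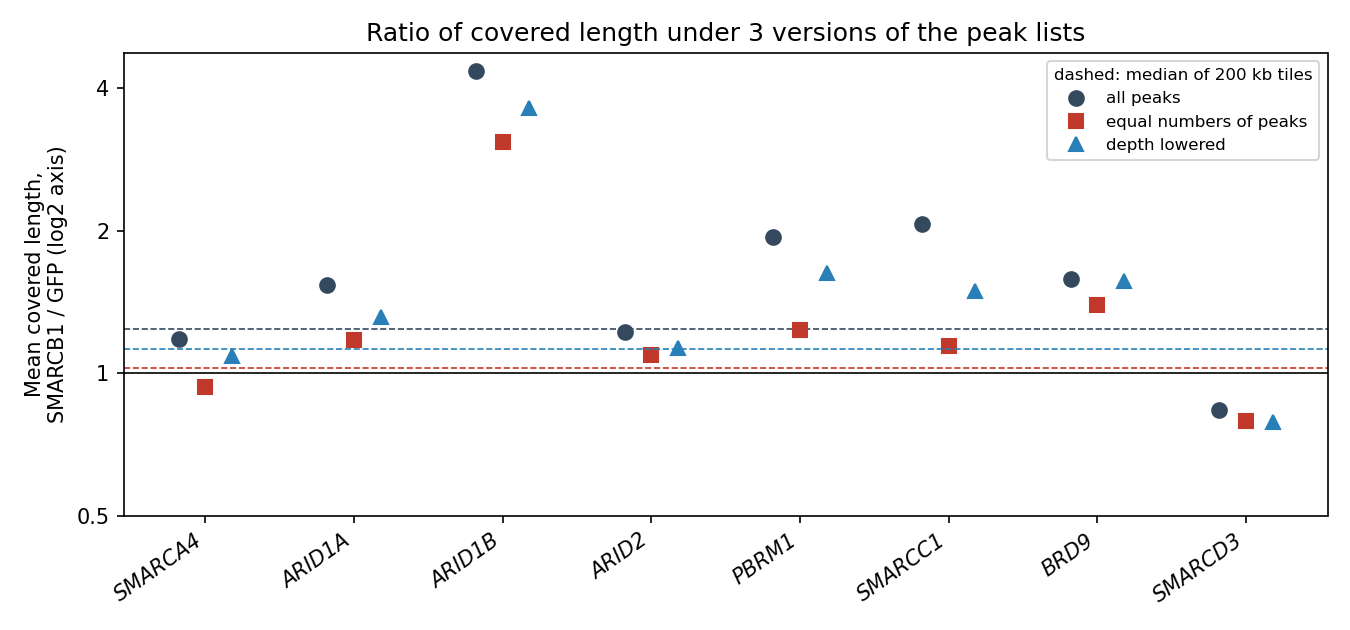
Ratio of mean covered length, SMARCB1 over GFP (log2 axis), for the 8 windows with peaks under all peaks, equal lists and depth-lowered lists, with dashed lines at the tile medians of 1.24, 1.03 and 1.13. ARID1B lies at 4.35, 3.07 and 3.63, SMARCD3 lies under 1 in all versions, and SMARCA4 changes side with equal lists.

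The authors' tables of stitched regions join neighbouring peaks and are named in their headers as distal to transcription start sites. They marked some regions that overlapped these windows as super-enhancers. Such a region can reach beyond its window and may belong to a neighbouring gene. In SMARCB1 replicate 1, 1 region at BRD9 held 24 peaks, against 20 peaks in the whole window. ARID1B had 1 marked region in both SMARCB1 tables, 30.04 and 29.7 kb long, and none in the GFP tables. Marks were more numerous with SMARCB1 over the genome as well. There, 2003 of 36063 and 1521 of 30305 regions were marked with SMARCB1, against 910 of 26982 and 649 of 19377 with GFP. ARID1A had 1 marked region in both GFP tables, 66.9 and 58.5 kb long, and none in the SMARCB1 tables. In the SMARCB1 tables, however, the ARID1A window was listed as 63 and 62 regions of a single peak each, so the marks do not follow its covered length, which was higher with SMARCB1. SMARCA4 was likewise listed as 72, 86 and 73 single-peak regions without a mark in GFP replicate 1 and both SMARCB1 tables, and as 2 marked regions in GFP replicate 2. Over the genome, single-peak regions made up 76.9% and 70.8% of the GFP tables and 73.0% and 70.1% of the SMARCB1 tables. SMARCC1 had a mark in GFP replicate 2 and 2 in SMARCB1 replicate 1, and PBRM1 and BRD9 had 1 each in SMARCB1 replicate 1. ARID2, SMARCD3, SMARCA2 and DPF3 had no mark in any table. Marks in 1 library of a group were not shared by its replicate, and no comparison was drawn from them.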

How the data were processed

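H3K27ac peak lists of 4 G401 libraries were used, 2 GFP-induced and 2 SMARCB1-induced, grouped by their titles. The submitters' processing notes name BWA 0.7.12-r1039, SAMtools and bedtools without their roles, and the names of the deposited files give hg19, MACS2 and a filter, with 1 peak list per library. Which caller version, control and filter were used is not given in the sources used here. The deposited fold enrichment is a ratio of the summit over the caller's background, and the deposited -log10 p and -log10 q belong to the same summit, all computed by the authors. Stitched regions and super-enhancer marks came from ROSE, per the file headers. Each table was matched to a library through its name, which carries no antibody, and through region starts, 100% of which were peak starts of that library against at most 1.01% in another list. Its 8 signal columns were not used.

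Windows, members and lists were chosen with earlier results of these data known. Regions were merged from 1 bp of overlap, and covered length was clipped to the window. Group means were compared with exact two-sided permutation tests. The named regions were the strongest shared region of each window by its lowest fold, and, among gained and among lost regions, the 6 ranking first by the smaller fold of the 2 libraries with a peak. Fragments and background were solved so that the caller's formulas returned each fold and -log10 p within 0.001, and 100% of peaks were recovered in each list. The files give no read totals, so no interval on counts was possible, and the number of libraries limits the precision. In the depth-lowered lists, added after the data were seen, a peak was kept from a -log10 p of 2.84, with no random draw. Region calls, tiles and fragment recovery were tested on simulated data. Promoters and neighbouring genes came from RefSeq, GRCh38.p14, and no hg19 annotation was used, so promoter peaks and other subunit genes were not analysed here. Scripts ran in Python 3.11.15 with pandas 2.3.3, scipy 1.17.1, numpy 2.4.6 and, for plots, matplotlib 3.10.9.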

Additional observations from a re-analysis of the deposited data

How the results depend on the processing

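Direction was kept in every window and both measures except as follows. With equal lists the difference (SMARCB1 minus GFP) turned to -3.09 kb and -24.5 peaks in SMARCA4, -0.5 peaks in SMARCC1 and -1.5 peaks in BRD9. Relative to each library's total covered length it was -55.3 bases per Mb in SMARCA4 and -4.70 in ARID2. With peaks within 1 kb joined, which can only lower counts and does so in both groups, it was -3 peaks in SMARCA4 and 0 in SMARCD3. With depth lowered it was -0.5 peaks in SMARCA4. The cause of the changes listed here was not tested. The SMARCD3 groups also overlapped in peak number at a -log10 q of at least 5, with equal lists and with shrunk windows. SMARCA2 and DPF3 stayed at 0 throughout.

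Gained regions fell from 65 to 27 at a -log10 q of at least 5, to 21 with equal lists and to 25 with joined peaks, all of which shorten the lists. These were 16.9%, 9.46% and 13.4% of the windows' regions, against 15.1%, 11.4% and 14.1% of the genome's. Lost regions, 7 at first, were 19 with equal lists, 3 with windows shrunk by 10 kb, 3 with joined peaks, 12 with depth lowered and 26 at a reciprocal overlap of 50%. Except for the last, these were 8.56%, 0.787%, 1.61% and 4.11% of the windows' regions, against 8.12%, 3.94%, 2.57% and 5.24% of the genome's. No genome share is given for the reciprocal overlap. Without 1 library in turn, fewer libraries had to match, and gained regions ranged from 69 to 191 and lost regions from 7 to 30. Most gained regions came without SMARCB1 replicate 2 (191) or SMARCB1 replicate 1 (145), and most lost regions without GFP replicate 2 (30), GFP replicate 1 (24) or SMARCB1 replicate 1 (16). No window changed direction without a library, but the SMARCA4 difference in covered length ranged from 1.13 to 16.9 kb and that of BRD9 from 2.43 to 5.87 kb and from 0.5 to 7.5 peaks.

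With the replicate number as a block, mean differences are unchanged by construction, 22.5 kb in ARID1B and -2.19 kb in SMARCD3, and both pairs had the same sign in each window with peaks (24.8 and 20.1 kb in ARID1B, -1.93 and -2.45 kb in SMARCD3). An exact sign-flip test over 2 pairs gives p = 0.5, its smallest value. No label ties a number to a shared batch, so the numbers do not establish a pairing. Depth is known only as the recovered background, and acetylation under the caller's threshold was not detectable.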
